A study of Mus musculus with 12 samples.

Results

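The cAMP pathway genes described here are the 56 adenylyl cyclases, phosphodiesterases, subunits and inhibitors of protein kinase A (PKA) and A-kinase anchoring proteins that the count tables held, out of 41091 gene IDs in all. They were chosen by name alone. Protein-coding genes of GENCODE M21 qualified when their symbol was an Adcy, Pde, Prkac, Prkar or Akap family symbol, or Pkia, Pkib or Pkig. This gave 10 cyclases, 21 phosphodiesterases, 2 catalytic and 4 regulatory PKA subunits, 3 PKA inhibitors and 16 anchoring proteins. Families were assigned by symbol alone, so a gene counted as a phosphodiesterase, such as Pde6d, need not have that enzyme activity. Pde2a was not analysed here. Total RNA was sequenced from acute hippocampal slices of male wild-type C57BL/6 mice aged 2 to 3 months, with the dentate gyrus trimmed. Chemical long-term potentiation (LTP) was induced with 50 uM forskolin for 5 min and then with forskolin, 30 mM KCl and 10 mM calcium for another 5 min. Slices kept as controls, from the same animals, were held for 10 min in vehicle (0.2% DMSO). Slices were frozen 1 hr or 3 hr later, which gave a control and an LTP group at each time, 4 groups in all, of 3 libraries each, 1 for each of 3 animals at a time point. All animals were wild type, and the agents above were the only treatments the labels name. Forskolin, KCl and calcium were given together, so their parts in any LTP effect cannot be told apart.

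Adenylyl cyclases make cAMP from ATP, and forskolin activates most membrane-bound forms of the enzyme directly. cAMP releases the catalytic subunits of PKA from their regulatory subunits, while anchoring proteins (AKAPs) hold the kinase near its substrates and phosphodiesterases (PDEs) break the signal down again. In hippocampal neurons this pathway takes part in the late, transcription-dependent phase of LTP.

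Library totals lay between 37118382 and 50815001 counts. The members together took between 6711 and 7302 CPM, counts scaled by library size with TMM normalisation. The activity-induced genes Arc, Fos, Npas4 and Btg2 rose in LTP slices at both times. The study made libraries only of samples in which Arc had risen by qPCR, so the rise of Arc was fixed by that choice and is no independent check. 1 hr control replicate 2, which the study set aside as an outlier of its clustering, is left out of the tests below and of the 1 hr control means, which therefore rest on 2 libraries. Neuronal and CA1 markers were present in every library, and the 4 markers of dentate granule cells still summed to between 168.9 and 288.0 CPM over the fitted libraries after trimming. Of the 4 markers of infiltrating leukocytes, 2 stayed under 0.1 CPM in every library.

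Levels were compared between members as CPM per kilobase of exon, since longer genes collect more reads. The study measured expression from reads over coding regions. The deposited counts also cover non-coding genes, but whether those of protein-coding genes are limited to coding regions could not be settled. Levels were therefore also computed per kb of coding length. In each family 1 or a few genes held most of the level. Adcy1, a calcium- and calmodulin-stimulated cyclase of neurons, was the highest cyclase, with 105 CPM per kb in 3 hr controls and 49.9% of the summed cyclase level there. Adcy2 and Adcy9 came next, with 36.9 and 32.5 CPM per kb in the same group. Pde1a, a calcium- and calmodulin-activated phosphodiesterase of cAMP and cGMP, was the highest phosphodiesterase over all libraries, followed by Pde4b. Prkaca stood above Prkacb among the catalytic subunits, with 54.8% of their sum in 3 hr controls. Prkar1a stood above Prkar1b among the regulatory subunits, Pkia held 86.7% of the inhibitor level, and Akap11 was the highest anchoring protein, with 29.9%. Per kb of coding length the same genes led 5 of the 6 families, but Prkaca lay below Prkacb, with 30.6% of their sum in 3 hr controls, and the share of Adcy1 was 71.4%.

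At the other end, Akap4, an anchoring protein of sperm, had 0 counts in all 12 libraries, which allows a level of up to 0.0808 CPM in the shallowest library. The cone and rod photoreceptor genes Pde6c and Pde6a had at most 15 and 6 counts in any library. These 3 genes were too low to be tested in any comparison, and Akap3 was too low at 3 hr. Adcy10, Akap2, Akap14, Pde4c and Pde6b were tested but had at most 42 counts in any library. Other annotated genes cover 84.4% of the exonic bases of Akap2 and 22.1% of those of Adcy3, so their values are uncertain. Smaller overlaps belonged to Prkar1b (8.95%), Adcy6 (8.92%), Pde9a (8.34%) and Pde8b (7.60%).

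**Figure D1:**
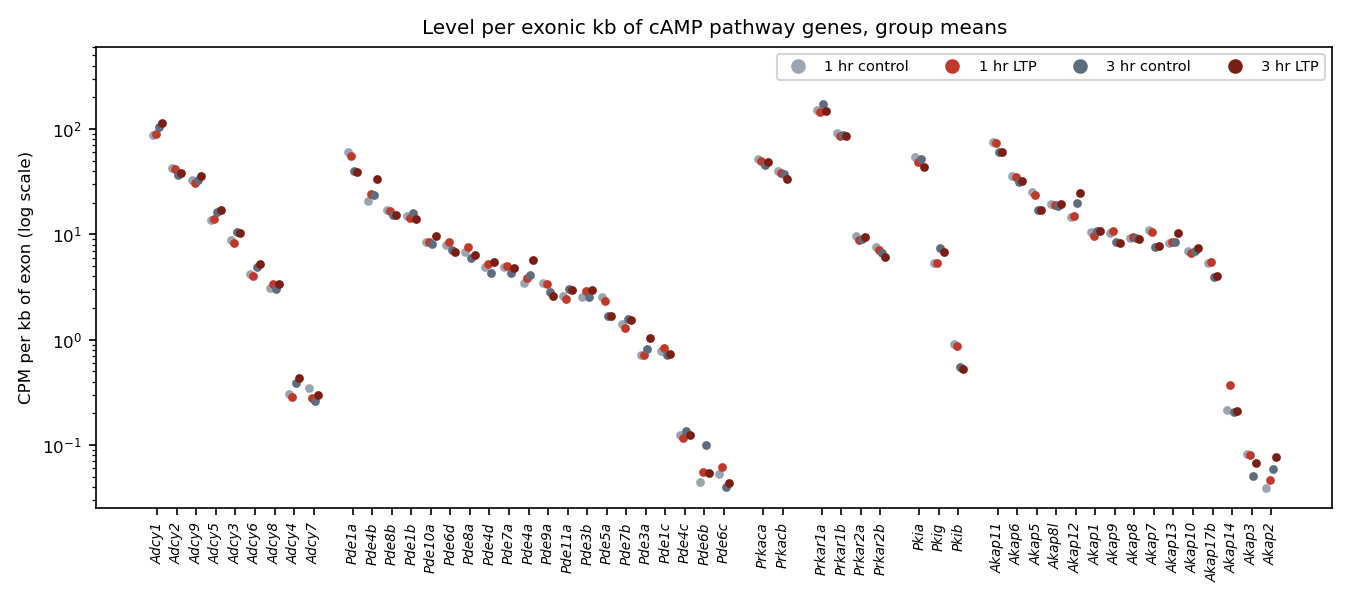
Level of 53 members in CPM per kilobase of exon (log axis), as the mean of each of the 4 groups (2 libraries for 1 hr control, 3 for the others), ordered within each family. Adcy1, Pde1a, Prkaca, Prkar1a, Pkia and Akap11 lead their families by exonic length, and Prkaca does not by coding length; Adcy10, Pde6a and Akap4, under 0.05 CPM per kb on average, are not drawn.

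The comparison of LTP with control slices at 3 hr asked which members differed late after induction. At 3 hr 7 of the 52 members tested (13.5%) rose and none fell. Of all 17508 genes tested 6.6% passed, 5.07% as rises and 1.53% as falls (edgeR quasi-likelihood, fold change over 1.2 and p under 0.1 after Benjamini-Hochberg adjustment). The 7 were Pde4b, Pde4a, Pde4d, Pde3a, Pde10a, Akap12 and Akap13, and so 5 of the 19 phosphodiesterases tested and 2 of the 14 anchoring proteins. No cyclase, catalytic subunit, regulatory subunit or inhibitor passed. An unadjusted p under 0.05 was reached by 12 members (23.1%) and by 20.2% of all genes tested. The median log2 fold change was 0.05 over the members, of which 33 of 52 lay above 0, and -0.0025 over all genes tested. All 3 LTP libraries lay above all 3 controls in 14 members and below them in 3, shares of 26.9% and 5.77%, where the same held for 12.9% and 14.1% of all genes tested. In these bulk samples fewer cells of a type and less RNA per cell cannot be told apart. Of 60 cell type markers tested at 3 hr, 0 passed by edgeR quasi-likelihood (10 at an unadjusted p under 0.05). The 3 fibroblast markers lay lower in LTP slices, with -0.69 for Col1a1, -0.64 for Lum and -0.52 for Dcn (2 at an unadjusted p under 0.05), and summed to between 17.1 and 25.4 CPM in controls and between 10.5 and 19.3 CPM in LTP slices. Their part in the members' 3 hr values was not tested.

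**Figure D2:**
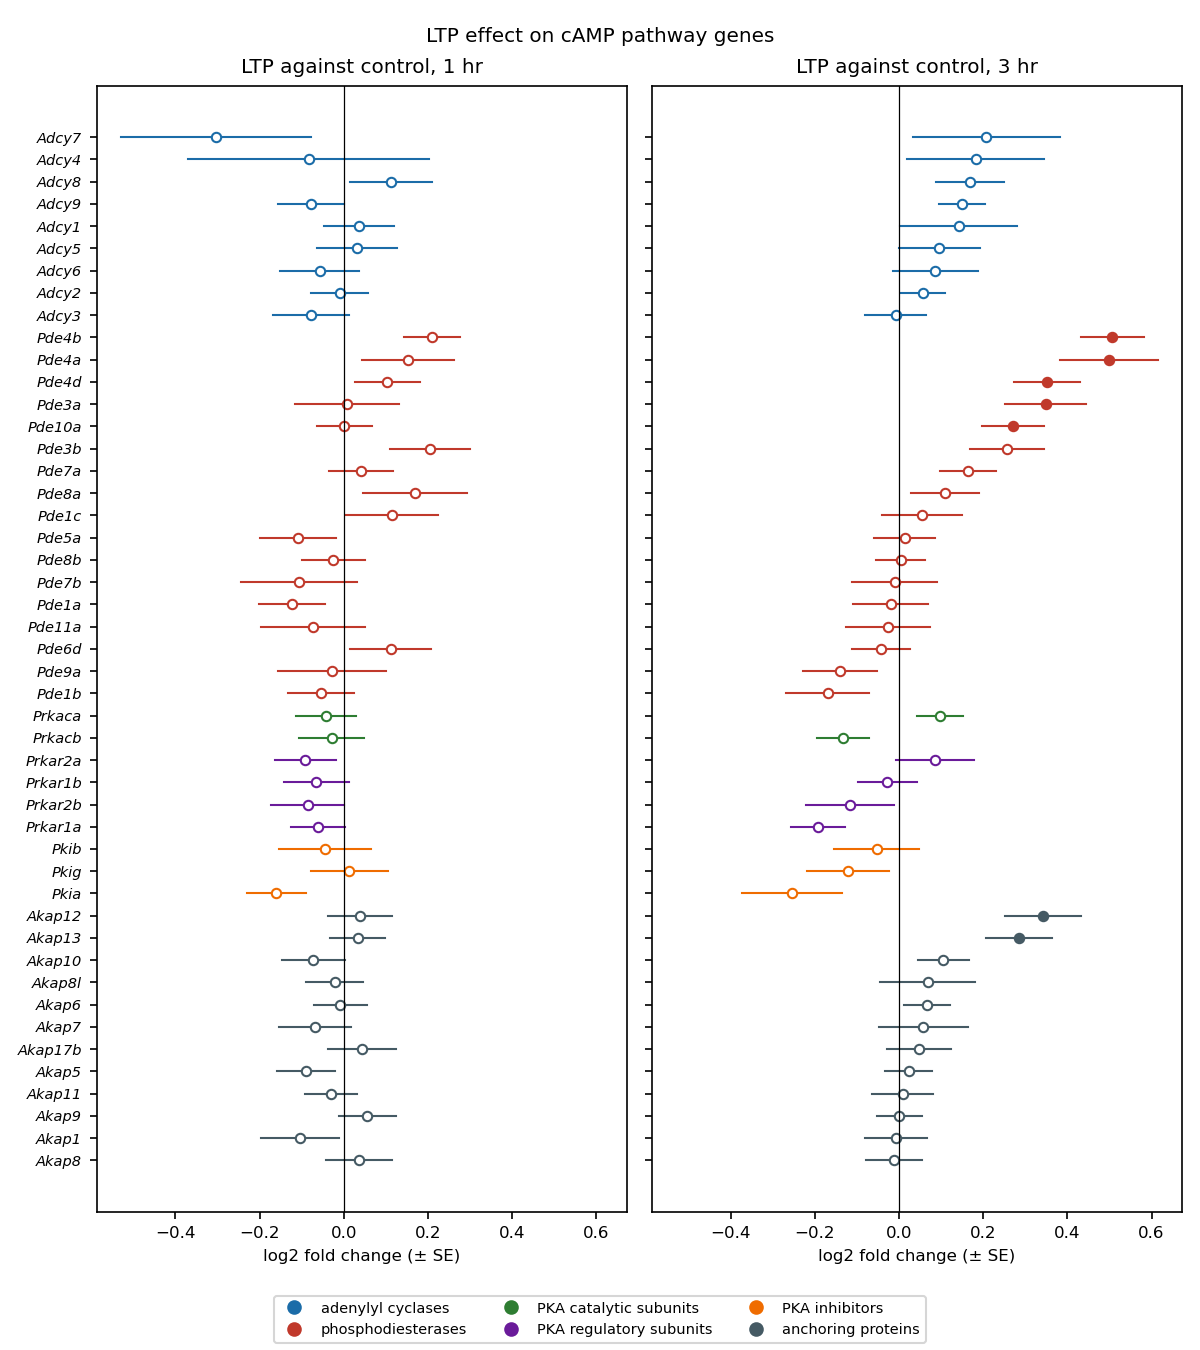
Log2 fold change (± SE) of LTP against control for 47 members with a mean of at least 1 CPM, at 1 hr (left, 5 libraries) and 3 hr (right, 6 libraries), coloured by family and ordered within it by the 3 hr value. Filled points passed the test: none at 1 hr, and 5 phosphodiesterases and 2 anchoring proteins at 3 hr.

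The Pde4 genes, which encode cAMP-specific phosphodiesterases that rolipram inhibits, made up 3 of the 7 calls. Pde4b (ENSMUSG00000028525, chr4:102087543-102607259, plus strand, GRCm38) had 251, 272 and 224 CPM in 3 hr controls 1, 2 and 3 and 344, 359.7 and 349 CPM in the 3 hr LTP libraries. Every LTP library lay above every control, and the LTP libraries lay within a narrow band. The group means were 249 ± 24.3 and 351 ± 8.15 CPM (SD, n = 3). The log2 fold change was 0.51 (SE 0.0747), or 1.42-fold, with an adjusted p of 0.0111 (edgeR quasi-likelihood). The log2 ratio of LTP to control within an animal was 0.45, 0.40 and 0.64 in animals 1, 2 and 3. Pde4b was the only member that stayed called in all 14 alternatives run at 3 hr, with log2 fold changes from 0.41 to 0.57.

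Pde4a (chr9:21165714-21213248, plus strand) had 29.4, 30.7 and 33.8 CPM in the 3 hr controls and 46.3, 36.3 and 49.1 CPM in the LTP libraries. The groups did not overlap, and LTP replicate 2 was the lowest of its group. On the log2 scale Pde4a was higher by 0.50 (SE 0.117), with an adjusted p of 0.0553 (edgeR quasi-likelihood). Pde4d (chr13:108449948-109953461, plus strand) had 51.5, 53.5 and 49.6 CPM in the controls and 64.3, 59.3 and 71.9 CPM in the LTP libraries. Its groups did not overlap either, and LTP replicate 2 was again the lowest. The log2 fold change of Pde4d was 0.35 (SE 0.0794), with an adjusted p of 0.0494 (edgeR quasi-likelihood). Pde4c, the fourth gene of the group, was low, with 19 to 42 counts a library, at 0.757 ± 0.128 CPM in 3 hr controls and 0.700 ± 0.0330 CPM in 3 hr LTP slices (SD, n = 3). Its log2 fold change was -0.10 (SE 0.214), an SE that leaves either direction possible.

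Together the 4 Pde4 genes held 22.6% ± 0.856 of the summed phosphodiesterase level per kb in 3 hr controls and 28.9% ± 1.31 in 3 hr LTP slices (SD, n = 3). The corresponding shares at 1 hr were 18.0% ± 0.453 in controls (SD, n = 2) and 20.5% ± 1.08 in LTP slices (SD, n = 3). Pde4b alone held 16.6% in 3 hr controls and 21.6% in 3 hr LTP slices, next to 25.4% for Pde1a. Per kb of coding length the summed Pde4 share was 22.6% in 3 hr controls and 28.8% in 3 hr LTP slices. Shares of a sum move together, so a higher share of Pde4b lowers the others.

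**Figure D3:**
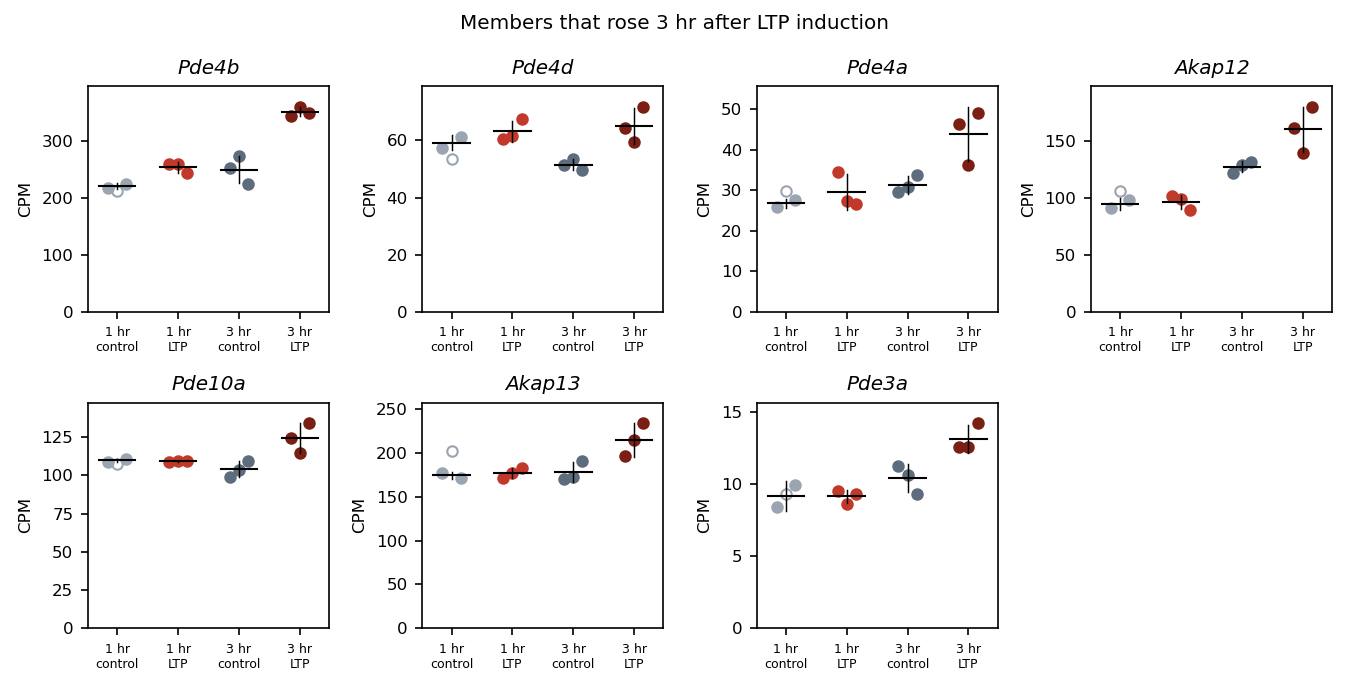
Normalised CPM of the 7 members that rose at 3 hr, in each of the 12 libraries; horizontal lines are group means and vertical lines ± SD (n = 2 for 1 hr control, 3 for the others), and the open circle is 1 hr control replicate 2, which was left out of means and tests. In each gene the 3 LTP libraries at 3 hr lie above the 3 controls of that time, while at 1 hr none of the 7 passed the test.

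Promoters were examined because several members rose together and cAMP-activated transcription factors bind a known element. RefSeq windows (GRCm38.p6) of 300 bases, from 250 before to 50 after a start site, were matched by symbol for 45 of the 56 members, 86 windows in all. The core of the cAMP response element (TGACG, or CGTCA on the other strand, searched on both strands and with any full element included) was present in 17 of these windows (19.8%) and in 20.8% of all 32851 windows. The full element TGACGTCA, in which the core and its reverse complement overlap, was present in 2 windows of members (2.33%), both of Prkar1a and both over the same site, and in 1.79% of all windows. Members not called at 3 hr, such as Pde1a, Pde8a, Prkaca and Adcy9, also had windows with the core. Of the 7 members that rose, Pde3a and Akap12 had no matched window. The other 5 had 11 windows, of which 2 held the core (18.2%, beside 20.8% of all windows), 1 in Pde4b and 1 in Pde4a. These are printed here with that of Prkar1a for comparison, with the element in capitals and each read 5′ to 3′ on the plus strand, which is also the strand of the gene.
Pde4b, chr4:102421508-102421537, element starting 34 bases before the start site: tgatttggctgcaCGTCAattttctcatct
Pde4a, chr9:21184038-21184067, element starting 50 bases before the start site: tggcacagctcgaCGTCAggctggggagga
Prkar1a, chr11:109650889-109650918, element starting 49 bases before 1 start site and 38 bases after another: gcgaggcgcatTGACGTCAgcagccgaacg
These genes have several start sites, with 4 windows for Pde4b, 3 for Pde4a and 6 for Prkar1a. A match shows the letters in the window and nothing of binding. Prkar1a, with the full element, did not pass at 3 hr and lay lower in LTP slices.

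Beyond the Pde4 genes, both other phosphodiesterases that rose break down cAMP and cGMP. Pde3a, a cGMP-inhibited enzyme (chr6:141249269-141507448), had 11.3, 10.6 and 9.34 CPM in the 3 hr controls and 12.6, 12.6 and 14.2 CPM in the LTP libraries. The groups did not overlap. On the log2 scale Pde3a was higher by 0.35 (SE 0.0960), with an adjusted p of 0.0868 (edgeR quasi-likelihood), and 5.82% of its exonic bases lie in other annotated genes. Pde10a (chr17:8525372-8986648), known best from striatal neurons, had 99.0, 104 and 109 CPM in the controls and 124, 114 and 134 CPM in the LTP libraries. The lowest LTP library stood only slightly above the highest control. Its log2 fold change was 0.27 (SE 0.0740), with an adjusted p of 0.0844 (edgeR quasi-likelihood).

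The remaining 14 phosphodiesterases tested did not pass. Pde3b, the second cGMP-inhibited enzyme, had 23.2, 23.8 and 22.2 CPM in the 3 hr controls and 28.4, 29.3 and 24.1 CPM in the LTP libraries. Its log2 fold change was 0.26 (SE 0.0883), and its adjusted p was 0.148 (edgeR quasi-likelihood). Pde7a, a cAMP-specific enzyme, had a log2 fold change of 0.16 (SE 0.0663). Pde1b, a calcium-activated enzyme, had a log2 fold change of -0.17 (SE 0.0977), which moved to -0.09 when LTP replicate 3 was left out and to -0.11 when control replicate 3 was. Pde1a, the most abundant of them, was at 241 ± 20.1 CPM in controls and 235 ± 25.6 CPM in LTP slices (SD, n = 3), and its log2 fold change was -0.02 (SE 0.0896). Pde5a, which is specific for cGMP, and Pde8b, a cAMP-specific enzyme of high affinity, had log2 fold changes of 0.01 (SE 0.0722) and 0.00 (SE 0.0593).

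Of the anchoring proteins, Akap12 (gravin; chr10:4266380-4359470), a scaffold of PKA and protein kinase C at the membrane, had 122, 129 and 132 CPM in the 3 hr controls and 162, 139.5 and 179.7 CPM in the LTP libraries. The groups did not overlap, and the LTP libraries spread more than the controls. On the log2 scale Akap12 was higher by 0.34 (SE 0.0907), with an adjusted p of 0.0782 (edgeR quasi-likelihood). Akap13 (chr7:75455534-75754609) had 170.4, 173 and 191 CPM in the controls and 196, 215 and 234 CPM in the LTP libraries, again without overlap. Its log2 fold change was 0.28 (SE 0.0781), with an adjusted p of 0.0857 (edgeR quasi-likelihood). The other 12 anchoring proteins tested at 3 hr did not pass. Akap5 (AKAP79/150), which holds PKA and calcineurin at the postsynaptic density, had a log2 fold change of 0.02 (SE 0.0557). The more abundant Akap11 and Akap6 had 0.01 (SE 0.0714) and 0.07 (SE 0.0548).

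The 7 calls depended on single libraries and on the correction for GC content and gene length. Only Pde4b was called when 3 hr control replicate 1, 2 or 3 or LTP replicate 1 was left out, which is 1.89% of the members beside 1.28% to 2.33% of all genes. Without LTP replicate 3 the calls were Pde3b, Pde4a, Pde4b and Pde4d. Without LTP replicate 2 there were 8, which is 15.4% of the members beside 12.2% of all genes. With offsets for GC content and exonic length 4 members were called: Pde4b, Pde4a and Akap12 rose and Pkia fell. This was 7.69% of the members tested, beside 7.98% of all genes tested, so that the higher share of the members was not seen under this setting. The share of the members without LTP replicate 3 was likewise 7.69%, beside 7.45% of all genes. Under these offsets Akap13 stood at 0.09, Pde10a at 0.15 and Pde3a at 0.22.

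At 3 hr 0 of the 9 PKA subunits and inhibitors passed by edgeR quasi-likelihood or by DESeq2, and 1 of them, Prkar1a, had an unadjusted p under 0.05. Prkar1a, the most abundant regulatory subunit (chr11:109649405-109669656), had 751, 775 and 710.0 CPM in the 3 hr controls and 640.3, 623 and 675 CPM in the LTP libraries. All LTP libraries lay below all controls. The log2 fold change was -0.19 (SE 0.0640), with an adjusted p of 0.136 (edgeR quasi-likelihood). Pkia (chr3:7366669-7445366), the main heat-stable PKA inhibitor in these slices, had 214, 191 and 178 CPM in the controls and 162, 188 and 134 CPM in the LTP libraries. Its groups overlapped, with LTP replicate 2 within the range of the controls. The log2 fold change of Pkia was -0.26 (SE 0.119), with an adjusted p of 0.272 (edgeR quasi-likelihood). With animal as a replicate block it was -0.27, with an adjusted p of 0.0963, and passed. Without LTP replicate 2 Pkia also passed (-0.38), while without LTP replicate 3 it stood at -0.15 and without control replicate 1 at -0.18, neither past the test. Of the catalytic subunits, Prkaca had a log2 fold change of 0.10 (SE 0.0547) and Prkacb -0.13 (SE 0.0617), and neither passed.

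The cyclases, which make the signal that phosphodiesterases remove, did not pass at 3 hr. Of the 10, 8 lay above 0, the median was 0.12 and the range was -0.42 (Adcy10) to 0.21 (Adcy7), but the lowest adjusted p was 0.17 (Adcy9, edgeR quasi-likelihood). The value of Adcy10 has an SE of 0.322 and rests on 4 to 36 counts a library. Adcy9, a cyclase that forskolin activates only weakly, had 169, 166 and 171 CPM in the 3 hr controls and 189, 178 and 189 CPM in the LTP libraries, without overlap, and a log2 fold change of 0.15 (SE 0.0547). Adcy8, which calcium and calmodulin stimulate, had a log2 fold change of 0.17 (SE 0.0813). Adcy1 had 1317, 1172 and 1438 CPM in the controls and 1753, 1202 and 1336 CPM in the LTP libraries. LTP replicate 1 was the highest library, and the other LTP libraries lay within the range of the controls.

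At 1 hr the same comparison addressed the early response. Of 53 members tested 0 were called by the edgeR quasi-likelihood test, and 0 by DESeq2, where 0.789% of all 17736 genes passed in edgeR, 0.778% as rises and 0.0113% as falls. An unadjusted p under 0.05 was reached by 2 members (3.77%), Pde4b and Pkia, and by 6.71% of all genes tested. The median log2 fold change was -0.02 over the members and -0.001 over all genes tested. All LTP libraries lay above the fitted controls in 2 members and below them in 7 (3.77% and 13.2%, against 10.5% and 12% of all genes tested).

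Pde4b had 216 and 225 CPM in 1 hr controls 1 and 3 and 259, 259 and 243 CPM in the 1 hr LTP libraries. The LTP libraries lay above the fitted controls. Its log2 fold change of 0.21 (SE 0.0664) had an adjusted p of 0.375 (edgeR quasi-likelihood), the smallest of the members. Pde3b and Pde8a, a cAMP-specific enzyme, had the next highest values among members with at least 1 CPM, 0.21 (SE 0.0960) and 0.17 (SE 0.124). The lowest were Adcy7, a cyclase at 1.88 ± 0.155 CPM in LTP slices (SD, n = 3), with -0.30 (SE 0.226), Pkia with -0.16 (SE 0.0697) and Pde1a with -0.12 (SE 0.0777). None of these 5 passed, and 3 of them rest on single controls. Without 1 hr control replicate 1 or 3 the values were 0.07 and 0.35 for Pde3b, 0.35 and 0.002 for Pde8a and -0.04 and -0.53 for Adcy7, and Pde8a stood at 0.28 without LTP replicate 1. Pde1a ranged from -0.06 without LTP replicate 1 to -0.19 without LTP replicate 3. All 4 PKA regulatory subunits lay below 0 at 1 hr, from -0.09 for Prkar2a to -0.06 for Prkar1a, and both catalytic subunits also did, with -0.04 for Prkaca and -0.03 for Prkacb. Endothelial and mural markers lay lower in LTP slices at 1 hr, with the 4 endothelial markers summing to between 85.4 and 92.3 CPM in the fitted controls and between 72.0 and 76.0 CPM in LTP slices. The 5 mural markers summed to between 158.7 and 160.2 CPM and between 134.1 and 147.4 CPM, and 1 of them, Myh11, fell. The 3 fibroblast markers also lay lower, with -1.56 for Col1a1, -0.16 for Lum and -0.57 for Dcn (2 at an unadjusted p under 0.05). All 5 microglial markers lay below 0, from -0.27 to -0.04, with 0 at an unadjusted p under 0.05. They summed to between 156.0 and 156.5 CPM in the fitted controls and between 138.4 and 153.8 CPM in LTP slices. All 5 pan-neuronal markers lay below 0 as well, from -0.14 to -0.04, with sums that overlapped. All 5 oligodendrocyte markers lay higher in LTP slices, by 0.17 to 0.26 on the log2 scale, with none called and 3 at an unadjusted p under 0.05, and summed to between 5603 and 7042 CPM in the fitted controls and between 6806 and 8122 CPM in LTP slices. The part of these markers in the members' 1 hr values was not tested.

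Whether the LTP effect differed between the times was tested directly, since a call at 3 hr and not at 1 hr is no test of a difference. Of 53 members 0 passed this test in edgeR quasi-likelihood or in DESeq2, against 0.0592% of all 18584 genes (0.0269% upward and 0.0323% downward), and 7 (13.2%) had an unadjusted p under 0.05, as did 6.59% of all genes tested. The difference was 0.30 (SE 0.102) for Pde4b, with an adjusted p of 0.558 (edgeR quasi-likelihood), the smallest of the members. It was 0.35 (SE 0.179) for Pde4a, 0.26 (SE 0.115) for Pde4d, 0.35 (SE 0.151) for Pde3a and 0.28 (SE 0.0982) for Pde10a. For Akap12 it was 0.31 (SE 0.128) and for Akap13 0.26 (SE 0.106). All 7 of the 3 hr calls lay above 0, which their choice favours. Without 3 hr LTP replicate 3 the difference was 0.20 for Akap12 and 0.16 for Pde4d, and without 1 hr control replicate 3 it was 0.20 for Pde3a. With offsets for GC content and length Akap13 stood at 0.13, and with block and offsets Pde3a stood at 0.19. In the same test all 4 endothelial markers lay above 0, from 0.28 to 0.39 (2 at an unadjusted p under 0.05). The mural markers Acta2, Myh11 and Tagln had 0.63, 0.67 and 0.84, each at an unadjusted p under 0.05, Rgs5 had 0.11 and Pdgfrb -0.03, and none of these markers was called. Their part in the members' differences was not tested.

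The controls of both times were compared to show what differed without induction. This comparison shares its 3 hr controls with the 3 hr LTP comparison and its 1 hr controls with the 1 hr one. Time after treatment and animal cannot be told apart in it, since no source used here says that an animal gave slices to both times. Of 53 members tested 12 (22.6%) differed, 3 higher and 9 lower at 3 hr, where 32.8% of all genes tested did, 16.1% higher and 16.8% lower (edgeR quasi-likelihood, same thresholds). All 3 hr controls lay above the fitted 1 hr controls in 9 members and below them in 20, where the same held for 31.5% and 29.2% of all genes tested. The median log2 difference was -0.08 over the members and -0.02 over all genes. A further 8 members (15.1%) passed the adjusted p but not the fold change of 1.2, as did 6.55% of all genes tested.

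Of the 15 anchoring proteins tested 5 were lower (33.3%) and 1 was higher, and of the 19 phosphodiesterases 3 were lower (15.8%), beside the 16.8% of all genes tested. Akap5 had 170.3 and 176 CPM in 1 hr controls 1 and 3 and 118, 117 and 115 CPM in the 3 hr controls. The groups lay far apart relative to their spread. Its log2 difference was -0.60 (SE 0.0645), with an adjusted p of 6.51e-05 (edgeR quasi-likelihood), the smallest of the members. Akap7, an anchoring protein of the plasma membrane and of calcium channels, was lower by 0.58 (SE 0.106) on the log2 scale. Akap17b was lower by 0.48 (SE 0.0795), Akap11 by 0.35 (SE 0.0700) and Akap9, which holds PKA at the Golgi and centrosome, by 0.34 (SE 0.0624).

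Pde1a had 362 and 364 CPM in 1 hr controls 1 and 3 and 249, 256 and 218 CPM in the 3 hr controls. It was lower by 0.62 (SE 0.0975) on the log2 scale, and its share of the summed phosphodiesterase level per kb was 36.9% in 1 hr controls and 28.1% in 3 hr controls. Pde5a was lower by 0.63 (SE 0.0843) and Pde9a, which is specific for cGMP, by 0.31 (SE 0.118) (adjusted p 0.0629, edgeR quasi-likelihood). The inhibitor Pkib had 10.7 and 10.7 CPM in 1 hr controls 1 and 3 and 7.14, 6.36 and 6.11 CPM in the 3 hr controls, the largest fall at -0.74 (SE 0.0993). The third inhibitor, Pkig, went the other way, from 20.8 and 22.2 CPM to 28.9, 28.1 and 31.4 CPM, with a log2 difference of 0.43 (SE 0.102).

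Akap12 was higher in 3 hr controls as well, with 91.0 and 98.7 CPM in 1 hr controls 1 and 3 and a log2 difference of 0.40 (SE 0.0967). It was thus the only member called in both this comparison and the LTP comparison at 3 hr. Adcy10, the soluble cyclase that bicarbonate activates, had 0.232 and 0.0947 CPM in the fitted 1 hr controls and 0.519, 0.327 and 0.701 CPM in the 3 hr controls. Its log2 difference of 1.64 (SE 0.504) rests on 4 to 36 counts a library and was not called without 1 hr control replicate 3 (1.16, adjusted p 0.207, edgeR quasi-likelihood). The 8 members past the adjusted p only were Adcy2 (-0.23), Akap6 (-0.23), Pde4d (-0.23), Prkaca (-0.22), Pde7a (-0.22), Pde6d (-0.19), Pde8b (-0.17) and Adcy3 (0.22), as log2 differences. Only Adcy3 among them was higher at 3 hr.

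1 hr control replicate 2 stood between the times for several of these genes. It had 154 CPM of Akap5, 697 CPM of Akap11 and 106 CPM of Akap12, each nearer to the 3 hr controls than the other 1 hr controls were. When it was included 9 members were called in place of 12, and Akap9, Akap11 and Pde9a were not among them. These 9 were 17% of the members, beside 27.4% of all genes. With offsets for GC content and length 17 were called (32.1%, beside 24.9% of all genes), so that the members lay above the share of all genes and not below it, also without Akap9 and Akap11, and Akap7 stood at -0.36 and Pkig at 0.27. Adcy10 stood at 1.07 with replicate 2 included. Pde9a was also not called without 1 hr control replicate 1 or 3 or without 3 hr control replicate 1 or 2, with log2 differences from -0.37 to -0.16 and adjusted p from 0.114 to 0.487 (edgeR quasi-likelihood).

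Of 61 cell type markers 23 (37.7%) differed between the controls, 7 higher and 16 lower at 3 hr, next to the 32.8% of all genes tested. Of the microglial markers 4 of 5 fell, and their sum was between 156.0 and 156.5 CPM in the fitted 1 hr controls and between 99.6 and 111.7 CPM in the 3 hr controls. Of the mural markers 4 of 5 fell, and their sum was between 158.7 and 160.2 CPM and between 108.8 and 116.9 CPM. Endothelial markers fell in 3 of 4 cases, pan-neuronal markers fell in 2 of 5, and oligodendrocyte markers rose in 2 of 5. All 4 CA1 markers lay higher at 3 hr, with 2 called, and summed to between 361 and 415 CPM in the fitted 1 hr controls and between 442 and 527 CPM in the 3 hr controls. Of the 4 CA3 markers 1 rose and 1 fell, and their sum was between 67.2 and 72.5 CPM and between 99.1 and 104 CPM. Their part in the members' differences between controls was not tested.

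**Figure D4:**
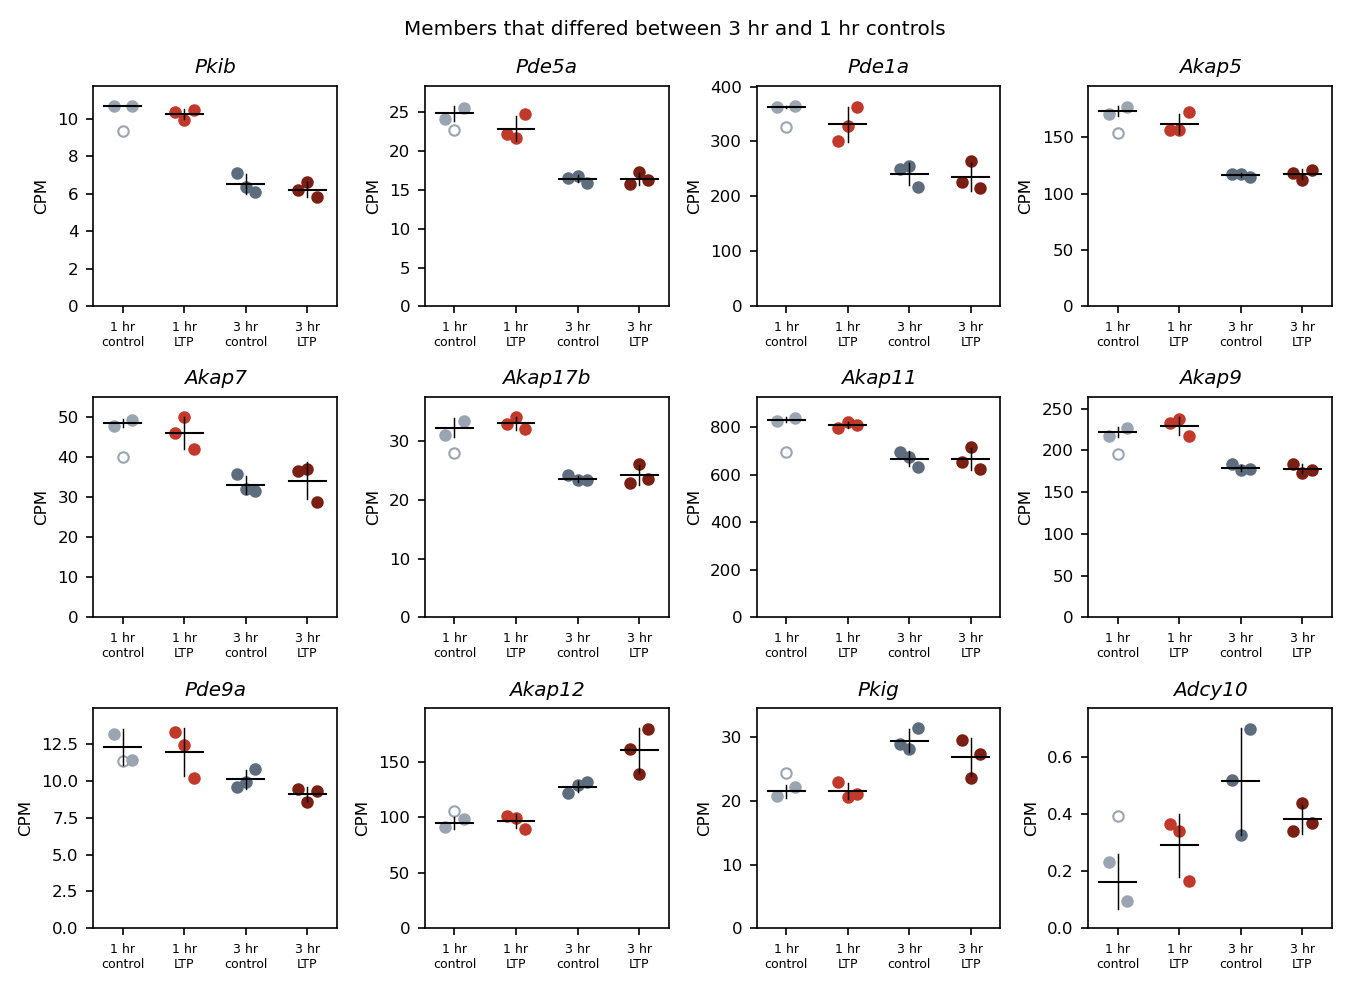
Normalised CPM of the 12 members that differed between 3 hr and 1 hr controls, in each of the 12 libraries, ordered from the largest fall to the largest rise; horizontal lines are group means and vertical lines ± SD (n = 2 for 1 hr control, 3 for the others), and the open circle is 1 hr control replicate 2. Of these genes Akap12 alone was also called between LTP and control at 3 hr.

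Genes before and after these members in the pathway were counted from lists made by known role. Beside these counts stand the 5.07% of all genes tested that rose at 3 hr and the 1.53% that fell, and the lists were not tested against them. Of 20 receptors that couple to Gs and so raise cAMP, 2 rose and 1 fell in LTP slices at 3 hr. Gpr3, a receptor with high constitutive activity toward Gs, had 8.30, 8.93 and 8.78 CPM in the 3 hr controls and 13.0, 14.3 and 13.8 CPM in the LTP libraries. Its log2 fold change was 0.68, SE 0.0790, and its adjusted p was 0.00452 (edgeR quasi-likelihood). It was also the only gene of all these lists called at 1 hr, apart from the activity-induced genes named above. There it had 6.64 and 5.80 CPM in 1 hr controls 1 and 3 and 10.1, 8.75 and 8.75 CPM in the LTP libraries. The 1 hr log2 fold change was 0.58, SE 0.134, with an adjusted p of 0.0943 (edgeR quasi-likelihood), just under the threshold of 0.1. The groups of Gpr3 did not overlap at either time. Mc4r rose by 0.43, SE 0.113 and Drd1, the D1 dopamine receptor, fell, with a log2 fold change of -0.61, SE 0.149, at 3 hr. Between the controls Gpr3 was higher (0.45, SE 0.106) and Mc4r lower (-0.71, SE 0.147) at 3 hr. Both were called there, and Drd1 was not.

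Of 23 receptors tested that couple to Gi and so lower cAMP, Htr1b rose at 3 hr (0.77, SE 0.116) and Adra2c fell (-0.32, SE 0.0899). Adra2c was also called between the controls, higher at 3 hr (0.38, SE 0.116), and Htr1b was not. None of 14 G protein subunits passed by edgeR quasi-likelihood (1 at an unadjusted p under 0.05), nor did any of 11 other cAMP effectors (1 at an unadjusted p under 0.05). Among 18 anchoring proteins with other symbols Wasf1 rose (0.54, SE 0.0912), and among 19 PKA substrates and phosphatase partners Cacna1c and Syn1 rose (0.43, SE 0.0960 and 0.52, SE 0.144). Of 8 cAMP-responsive transcription factors and coactivators 3 rose: Crem (0.57, SE 0.0988), Crebbp (0.48, SE 0.127) and Ep300 (0.62, SE 0.0851).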

How the data were processed

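RNA-seq libraries were prepared by the authors from ribosomal-RNA-depleted total RNA with a stranded kit, aligned with STAR to GRCm38/mm10 and counted per gene. The deposited tables, 1 per time point, hold raw counts, not normalized. The study describes expression as measured over coding regions. The deposited counts also cover non-coding genes, and for protein-coding genes they neither state nor exclude this limit. Whether counting used strand is not stated, so genes that overlap another gene are uncertain. Of 41091 gene IDs 40217 matched GENCODE M21, which gave symbols, positions and exonic lengths. R 4.3.3 with edgeR 4.0.16 was used for quasi-likelihood F tests of the counts (filterByExpr, TMM, Benjamini-Hochberg over all genes tested). Calls needed a fold change over 1.2 and an adjusted p under 0.1, as in the study, but no fold change minimum where LTP effects were compared between times. LTP comparisons used separate fits with no animal term, of 5 libraries at 1 hr, after 1 hr control replicate 2 was set aside as in the study, and of 6 at 3 hr. The controls and the difference between effects were tested in 1 model of 11 libraries. Each SE was computed as the size of the log2 fold change over the square root of the F statistic. It was not estimated separately and can break down very close to 0. CPM values were scaled with TMM over all 12 libraries. For log2 ratios within an animal 0.1 CPM was added to both values. The level of 3 counts was 0.059 to 0.0808 CPM, depending on the library, and covers counting error only. Replicate libraries differed by more than counting error, with a chi-square per degree of freedom between 9.49 and 85.6.

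The labels give control and LTP libraries of a time point the same animal number, and the study divided each animal's slices between them, so the numbers pair libraries within a time point. The correlation across genes of paired deviations from the group means was, in order of animal number, -0.0169, -0.134 and 0.0741 for the 1 hr pairs. The 3 hr pairs gave 0.0297, -0.0384 and 0.194.

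The members, the pathway and marker lists and the tests were chosen with earlier results of these data known. Named members were those called, those past the adjusted p only, the highest per kb in each family, the 3 largest rises and falls with at least 1 CPM in each LTP comparison, and those that failed the filter on low counts, and from each pathway list at most the 3 called genes with the smallest p. Other members named beside these (Pde3b, Pde7a, Adcy8, Adcy9, Akap5 and the like at 3 hr) were chosen after their values were seen. Alternatives were DESeq2 1.42.0, its size factors, other filters (1 count over the fitted libraries, or 10 counts in every library), offsets for GC content and exonic length from splines with 5 degrees of freedom, an animal block, 1 model of the 4 groups, the set-aside library included, and each library left out in turn. Levels per kb of coding length were added after seeing the data. The fitting code was tested on simulated data.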

Additional observations from a re-analysis of the deposited data

Results flagged for a closer look

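The effect of LTP differed between the times, by the test of the difference itself, in 2 of the 4 activity-induced genes examined. All 4 differences lay below 0, from -1.31 to -0.49, each at an unadjusted p under 0.05 (edgeR quasi-likelihood). For Btg2, an antiproliferative immediate early gene, the 3 hr minus 1 hr difference was -1.31 on the log2 scale, since LTP raised it by 2.66 at the early and 1.35 at the late time. For Arc, an activity-regulated gene of synapses, it was -0.68, and the early log2 fold change was 1.99. Libraries were made only of samples in which Arc had risen by qPCR. No cAMP pathway member met this test in the edgeR quasi-likelihood fit.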

How the results depend on the processing

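At 1 hr and for the difference between the times 0 members were called in every alternative run. At 3 hr the 7 calls became 4 with offsets for GC content and length and 4 with the replicate block and these offsets together, beside 7.98% and 9.5% of all genes (7.69% of the members in both), and from 1 to 8 when a library was left out, where 1.28% to 12.2% of all genes were called. With the replicate block alone 8 members were called, the 7 and Pkia (15.4% of the members, beside 9.49% of all genes). The block changed no other call of the LTP comparisons among named members, and at 1 hr and for the difference it gave 0. Without a filter beyond 1 count Pde10a stood at 0.25, under the fold change minimum, and 6 were called (10.9%, beside 4.53% of all genes). DESeq2, its size factors, the stricter filter and the model of the 4 groups each gave 7. This was 13.2% to 13.7% of the members, beside 6.54% to 7.58% of all genes. Between the controls 9 to 17 members were called, 17 with the offsets (32.1%, beside 24.9% of all genes) and 9 with the set-aside library (17%, beside 27.4%).

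Log2 fold changes at 1 hr that changed sign were all near 0 and not called. Akap12 (0.04) became -0.019 with the set-aside library, -0.015 with block and offsets, -0.0185 with block and set-aside library and -0.0201 without 1 hr control replicate 1, and leaving out a library gave values up to 0.0977. Akap13 (0.03) became -0.034 with offsets, -0.0446 with the set-aside library, -0.0416 with block and offsets and -0.041 with block and set-aside library. Pde10a (0.001) became -0.0018 without a filter, -0.0489 with offsets, -0.0083 in the model of the 4 groups, -0.0025 with the block, -0.0451 with block and offsets, -0.0102 without control replicate 1 and -0.0026 without LTP replicate 2, with values up to 0.0108 when a library was left out. Pde3a (0.01) became -0.0394 with offsets, -0.0034 with the set-aside library, -0.0021 in the model of the 4 groups, -0.00198 with block and set-aside library, -0.106 without control replicate 1 and -0.0223 without LTP replicate 1, with values up to 0.131 when a library was left out. The causes were not tested. Of the other members recomputed at 1 hr, these kept their sign but ranged widely: 0.002 to 0.353 for Pde8a, 0.0729 to 0.349 for Pde3b and -0.534 to -0.0392 for Adcy7. Pde4a ranged from 0.0239 to 0.228, Pde4d from 0.0566 to 0.148 and Pde1a from -0.193 to -0.0586, also without a change of sign. Leaving out a 1 hr control leaves 1, which is then assumed to vary like the LTP libraries. At this depth members with fewer than 50 counts a library, such as Adcy10, Akap2, Akap3, Akap14, Pde4c and Pde6b, could show only large differences.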
